A study of Mus musculus with 8 samples.

Results

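The genes of creatine synthesis, creatine uptake and the creatine kinase reaction were compared between BTBR/R and B6 mice. They were Gatm, Gamt, Slc6a8, Ckb, Ckm, Ckmt1 and Ckmt2, that is 7 of the 37074 gene names on the array, and the probes were those that carry a member's symbol in the array annotation, 11 of 56605. RNA came from the whole cerebral cortex and striatum of male mice. The BTBR/R group was 4 mice of the inbred strain BTBRTF/ArtRbrc, and the B6 group was 4 mice of the inbred strain C57BL/6J, with no treatment named for either strain. The mice were 4 months old according to the labels, apart from BTBR/R replicate 1 at 6 months. The study obtained the BTBR/R strain from a repository and the B6 mice from a commercial breeder, so that strain and source cannot be told apart.

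Creatine is made in a pair of steps. Gatm encodes glycine amidinotransferase, the mitochondrial enzyme that moves the amidino group of arginine onto glycine to give guanidinoacetate, and Gamt encodes guanidinoacetate N-methyltransferase, which adds a methyl group from S-adenosylmethionine to give creatine. Slc6a8 encodes the sodium- and chloride-dependent creatine transporter of the plasma membrane. Creatine kinases pass phosphate between ATP and creatine, so that phosphocreatine buffers and carries energy in cells with a high and changing demand such as neurons. Ckb is the cytosolic brain form, Ckmt1 the ubiquitous mitochondrial form, Ckm the cytosolic muscle form and Ckmt2 the sarcomeric mitochondrial form. Inherited loss of GATM, GAMT or SLC6A8 in people causes cerebral creatine deficiency.

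The arrays carry 60-base probes, and the sequences of 4 of them are given here with their positions. Positions follow mm9, the mouse genome build of the array annotation, and transcript bases are counted from the start of the annotated transcript. Both Gatm probes target transcript NM_025961 on the minus strand of chromosome 2. The brighter of them starts at transcript base 1692 (chr2:122420814-122420873), and the other starts at base 1104 (chr2:122423164-122423223), with 2290 genomic bases between them. The first 30 bases of the brighter probe and the whole of the other are shown.
Gatm probe from base 1692, first 30 bases: cctctttggtagacttatgaatgtccatat
Gatm probe from base 1104: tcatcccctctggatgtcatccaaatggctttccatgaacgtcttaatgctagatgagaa

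The next pair is shown because the brain and the muscle kinase are related genes whose probes lie in matching stretches. The Ckb probe starts at transcript base 755 (chr12:112908459-112909105, minus strand) and the Ckm probe at base 707 (chr7:20002222-20004829, plus strand). Both positions span more genome than the probe is long, so that the target crosses an intron. Over 56 aligned bases, 45 were identical and 11 differed (80.4% identity), and the longest run without a difference was 8 bases. Capitals mark the bases that differ.
Ckb probe from base 755: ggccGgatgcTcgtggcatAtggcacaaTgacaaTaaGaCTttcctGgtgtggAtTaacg
Ckm probe from base 707: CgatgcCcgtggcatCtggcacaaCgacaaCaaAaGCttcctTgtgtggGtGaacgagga
The Ckb probe was detected on all 8 arrays, with processed signals between 19975 and 24491, and the Ckm probe was detected on none, with signals between 3.25 and 10.6.

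Levels are given as the scaled signal, which is the processed signal divided by the 75th percentile over its array, on the log2 scale, so that 0 is a probe as bright as that percentile and each unit is a doubling. A probe was counted as detected where the scanner software marked it as well above background. Changes are BTBR/R minus B6, and a probe was called where its limma p, adjusted over all probes, was below 0.05 and the change was at least 2-fold. The 75th percentile lay between 556 and 572 on the B6 arrays and between 535 and 589 on the BTBR/R arrays. Detection covered 64.5% to 66.8% of probes in B6 mice and 53.5% to 57.2% in BTBR/R mice, where the lowest detected signal was also higher (36.1 to 47.1 against 14.5 to 17.8). The arrays shared 1 slide and 1 scan, and no library stood apart, with correlations between 0.994 and 0.998 within the strains.

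Of the 11 probes, 9 were detected on all 8 arrays and stand for Gatm, Gamt, Slc6a8, Ckb and Ckmt1, and the probes of Ckm and Ckmt2 were detected on no array. Among the detected probes, 1 of 9 was called, a Gatm probe, beside 2.20% of the 28547 probes detected on all 8 arrays (1.16% called lower and 1.04% called higher). By the adjusted p alone, 4 of 9 passed, both probes of Gatm lower and both probes of Ckmt1 higher, beside 26.9% of detected probes (13.9% lower and 13.0% higher). Counted with the undetected probes, 3 of 11 were called, beside 22.4% of all 56605 probes (2.27% lower and 20.2% higher), and 6 of 11 passed the adjusted p alone, beside 39.3% (11.6% lower and 27.7% higher). The strains did not overlap for 6 of the 9 detected probes, beside 32.6% of detected probes. Gamt, Slc6a8 and Ckb passed at none of their 5 probes.

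**Figure D1:**
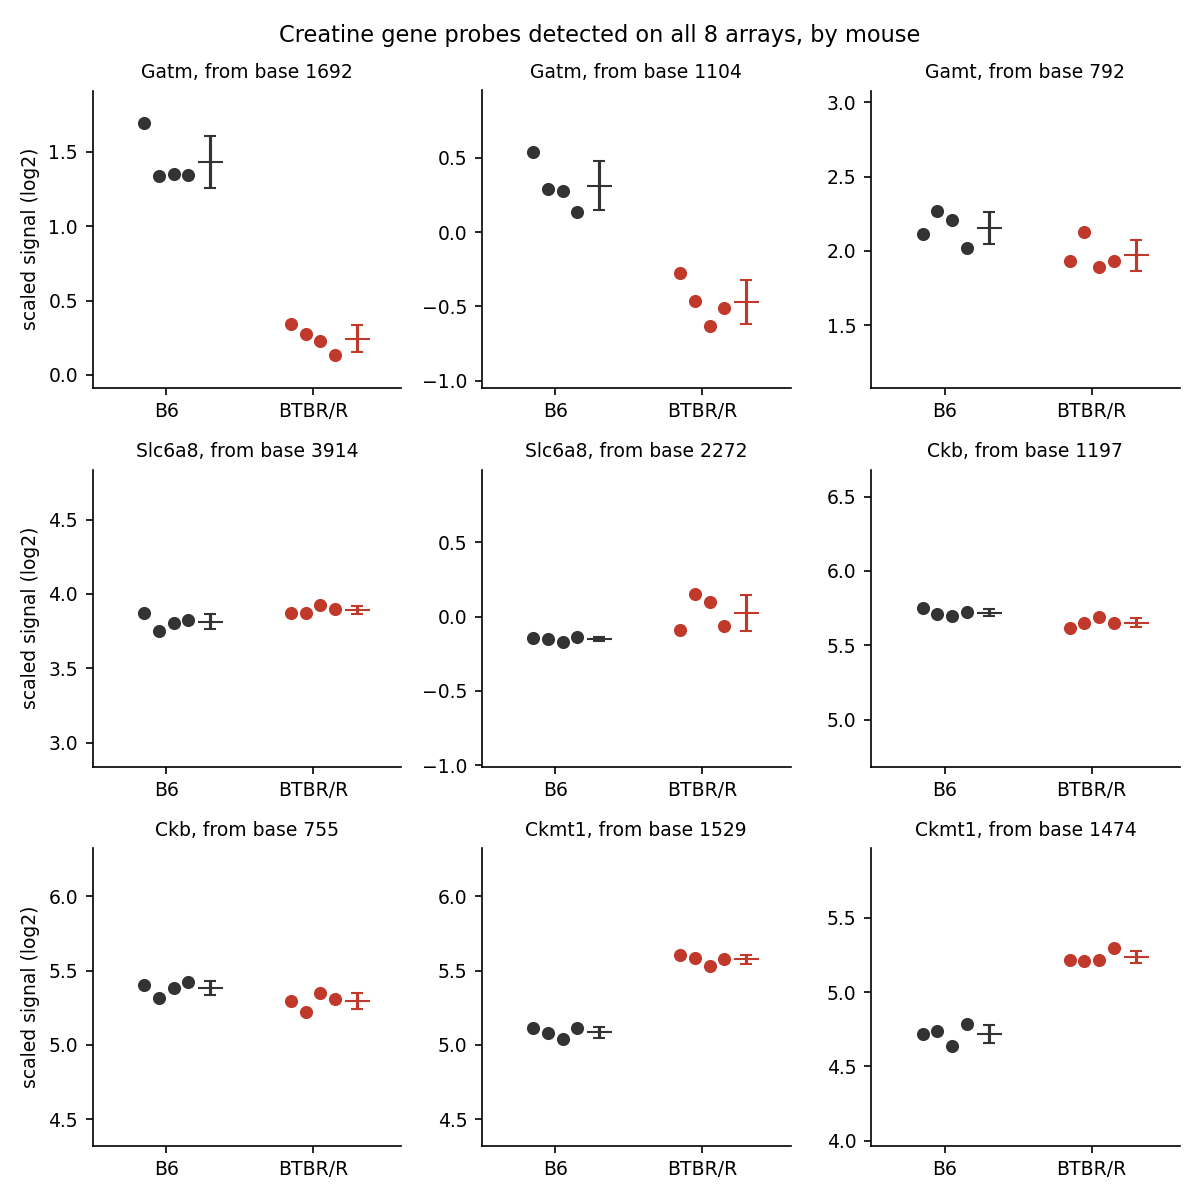
Scaled signal (log2, vertical axis) of the 9 probes detected on all 8 arrays, with a point for each mouse in replicate order and the mean with SD (n = 4) to the right of each strain. Each panel spans 2 log2 units. The B6 and BTBR/R points stand well apart for both Gatm probes, lower in BTBR/R, and for both Ckmt1 probes, higher in BTBR/R.

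The signal of Gatm, the gene of the first enzyme of synthesis, was lower in BTBR/R mice. The scaled signal of the Gatm probe from base 1692 was 1.69, 1.34, 1.35 and 1.34 in B6 mice 1 to 4 and 0.34, 0.28, 0.22 and 0.13 in BTBR/R mice 1 to 4. Every BTBR/R mouse lay below every B6 mouse, and B6 mouse 1 stood above the other three, which were nearly level. The means were 1.43 ± 0.17 for B6 and 0.24 ± 0.09 for BTBR/R (SD, n = 4 each), a change of -1.19 (SE 0.10, 95% confidence interval -1.41 to -0.96, limma adjusted p 3.45e-05). This is a 2.28-fold lower signal, with an interval of 1.95 to 2.66. Without B6 mouse 1 the change was -1.10 (adjusted p 8.35e-05), and without the BTBR/R mouse aged 6 months it was -1.22 (adjusted p 0.000133).

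The Gatm probe from base 1104 moved the same way by less. Its scaled signal was 0.54, 0.29, 0.28 and 0.14 in B6 mice and -0.28, -0.47, -0.63 and -0.51 in BTBR/R mice, again with no overlap. The change was -0.78 (SE 0.11, 95% confidence interval -1.03 to -0.53, limma adjusted p 0.000786), a 1.72-fold lower signal that stayed under the 2-fold threshold. B6 mouse 1 was the highest and BTBR/R mouse 1 the highest of its strain at both probes. Within an array, the brighter probe exceeded the other by 1.12 ± 0.07 in B6 mice and by 0.72 ± 0.11 in BTBR/R mice (SD, n = 4 each). This difference fell by 0.40 in BTBR/R mice with no overlap between the strains. It is given with no test, like the other differences between probes in what follows, since these pairs were chosen with the members' values known.

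Gamt, the gene of the methyltransferase that completes synthesis, showed no change that passed the test. The Gamt probe (transcript base 792, chr10:79720991-79721047, minus strand) had scaled signals of 2.12, 2.27, 2.21 and 2.02 in B6 mice and 1.93, 2.13, 1.89 and 1.93 in BTBR/R mice. The strains overlapped through BTBR/R mouse 2. The change was -0.18 (SE 0.08, 95% confidence interval -0.36 to -0.0001, limma adjusted p 0.104), and without that mouse it was -0.23 with an adjusted p of 0.0438. With arrays scaled by spike-in probes it was -0.08 (limma adjusted p 0.444). The signal of Gatm relative to Gamt in the same array fell 2.01-fold in BTBR/R mice, from -0.72 ± 0.23 to -1.73 ± 0.12 (SD, n = 4 each), with no overlap. It restates the changes of both probes without the constant that scales an array.

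Slc6a8, the gene of the creatine transporter, showed no change that passed the test at either probe. The scaled signal of the brighter Slc6a8 probe (transcript base 3914, chrX:70927775-70927834, plus strand) was 3.87, 3.75, 3.81 and 3.82 in B6 mice and 3.87, 3.87, 3.93 and 3.90 in BTBR/R mice. The change was 0.08 (95% confidence interval -0.03 to 0.18, limma adjusted p 0.214), and the strains overlapped. It was 0.18 (limma adjusted p 0.0579) with arrays scaled by spike-in probes and 0.03 (limma adjusted p 0.636) with normexp background correction. The other Slc6a8 probe (transcript base 2272, chrX:70925849-70925908) read -0.15, -0.15, -0.17 and -0.14 in B6 mice and -0.09, 0.15, 0.10 and -0.06 in BTBR/R mice. Here every BTBR/R mouse lay above every B6 mouse, but the change of 0.17 (95% confidence interval 0.02 to 0.33) had a limma adjusted p of 0.0715. It passed the threshold without the BTBR/R mouse aged 6 months (0.21, limma adjusted p 0.0408) and with spike-in scaling (0.28, limma adjusted p 0.00709). Gatm relative to the brighter Slc6a8 probe in the same array fell by 1.26 in BTBR/R mice.

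Of the kinases of brain tissue, the mitochondrial form Ckmt1 was higher in BTBR/R mice at both of its probes. The probe from transcript base 1529 (chr2:121189414-121189473, plus strand) read 5.11, 5.08, 5.04 and 5.12 in B6 mice and 5.61, 5.59, 5.53 and 5.58 in BTBR/R mice. All BTBR/R values lay above all B6 values, and the spread within either strain was a small part of the distance between them. The change was 0.49 (SE 0.04, 95% confidence interval 0.39 to 0.59, limma adjusted p 5.3e-05), a 1.40-fold higher signal and thus not called. The probe from base 1474 (chr2:121189359-121189418) read 4.72, 4.74, 4.63 and 4.78 in B6 mice and 5.22, 5.21, 5.22 and 5.30 in BTBR/R mice, a change of 0.52 (SE 0.05, limma adjusted p 0.000103). These probes overlap by 5 bases, so that they read adjoining stretches of 1 transcript and are no independent measurements, and their difference within an array changed by -0.03, with overlap between the strains.

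The cytosolic form Ckb showed no change that passed the test. The probe from transcript base 1197 (chr12:112907787-112907846, minus strand) read 5.75, 5.71, 5.70 and 5.72 in B6 mice and 5.62, 5.65, 5.69 and 5.65 in BTBR/R mice. The strains did not overlap, but the change was only -0.07 (95% confidence interval -0.16 to 0.03, limma adjusted p 0.230), and it turned to 0.04 when arrays were scaled by spike-in probes. The Ckb probe from base 755 read 5.40, 5.31, 5.38 and 5.42 in B6 mice and 5.29, 5.22, 5.35 and 5.31 in BTBR/R mice, which overlapped, with a change of -0.09 (95% confidence interval -0.20 to 0.03, limma adjusted p 0.198) that became 0.02 with spike-in scaling. Ckmt1 minus Ckb within an array was -0.63 ± 0.02 in B6 mice and -0.08 ± 0.06 in BTBR/R mice (SD, n = 4 each), a rise of 0.56 or 1.47-fold with no overlap. Levels of different probes depend on their hybridization, so that these differences are compared between strains and not read as more of either transcript.

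**Figure D2:**
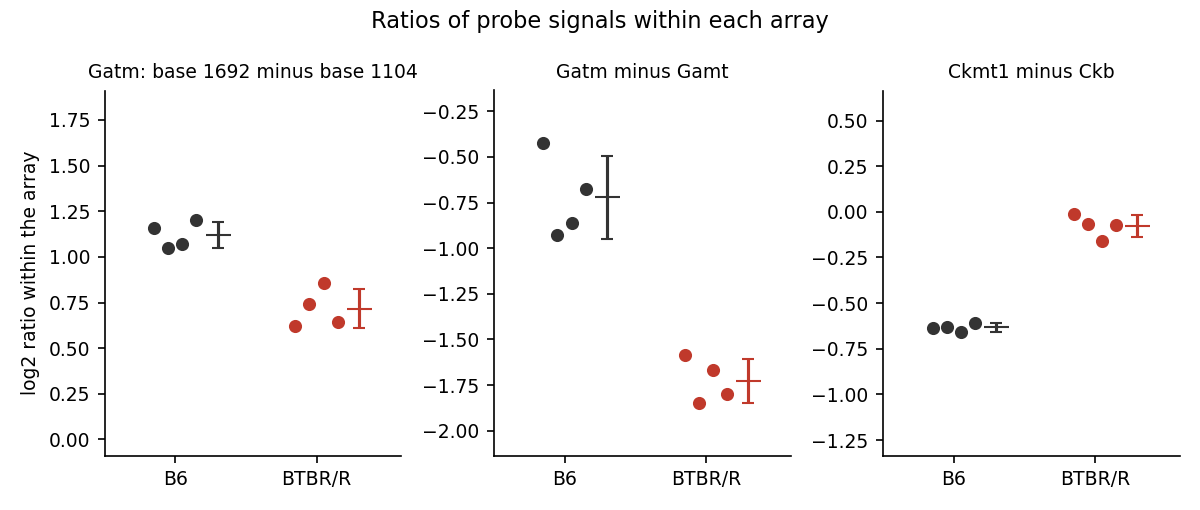
Log2 difference between the signals of 2 probes within the same array (vertical axis), for both Gatm probes, for Gatm against Gamt and for Ckmt1 against Ckb, with a point for each mouse and the mean with SD (n = 4) beside each strain. The BTBR/R points lie below the B6 points in the first and second panels and above them in the third, with no overlap.

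The muscle forms were not well above background in either strain. The Ckm probe had processed signals of 4.01, 3.25, 3.63 and 3.39 on the B6 arrays and 8.16, 10.3, 10.6 and 10.1 on the BTBR/R arrays. The Ckmt2 probe (transcript base 1176, chr13:91993242-91995390, minus strand) read 3.99, 6.73, 3.58 and 3.32 on the B6 arrays and 8.20, 11.4, 10.3 and 9.85 on the BTBR/R arrays. All of these values lie under the lowest signal of any detected probe on the same arrays. Both probes passed the rule for a call as higher in the BTBR/R group (limma adjusted p 2.76e-05 for Ckm and 0.00537 for Ckmt2), as did 67.7% of the 14874 probes detected on no array, and no fold is given for them. With normexp background correction, which models background from the raw intensity, 0 of those 14874 probes were called higher and the differences were -0.21 for Ckm (limma adjusted p 0.0211) and 0.14 for Ckmt2 (limma adjusted p 0.456). Of 15 skeletal and cardiac muscle markers, 8 were detected on all 8 arrays, among them Myh7, the slow myosin heavy chain, at 3.15 in B6 mice and 2.14 in BTBR/R mice, and Mb, myoglobin, was detected on none.

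**Figure D3:**
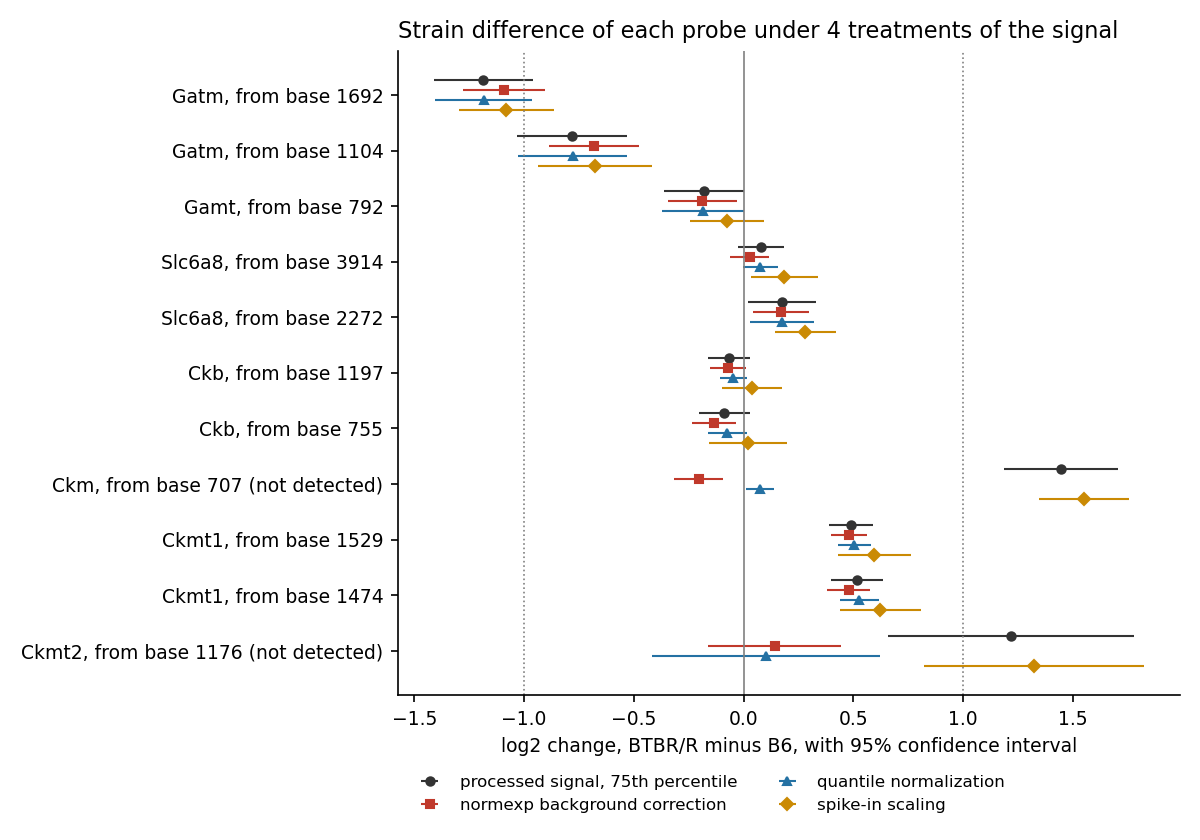
Log2 change, BTBR/R minus B6 (horizontal axis), of the 11 probes with the 95% confidence interval from limma, under the processed signal scaled by the 75th percentile, normexp background correction, quantile normalization and spike-in scaling; dotted lines mark 2-fold. The Gatm and Ckmt1 probes keep their side of 0 under all 4, the Ckb probes cross 0 with spike-in scaling, and the large values of the undetected Ckm and Ckmt2 probes lie near 0 with normexp and quantile normalization.

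In RNA from bulk tissue, fewer cells of a type and less RNA per cell cannot be told apart, so the levels of cell type markers are given beside the change of Gatm. The summed linear level of 12 oligodendrocyte markers was 285 to 353 in B6 mice and 246 to 272 in BTBR/R mice, 1.25-fold lower by the means, with 4 of 12 genes lower and 0 higher by the adjusted p. Over the 18857 genes with a probe detected on all 8 arrays, each by its brightest, 14.4% were lower and 13.9% higher by the adjusted p. The sum of 10 astrocyte markers was 354 to 397 against 290 to 329, 1.23-fold lower, with 5 of 10 genes lower and 0 higher. Neither range overlapped between the strains, and every marker of both lists was detected on all 8 arrays. Both ranges did overlap without the gene with the largest difference in linear level, at 232 to 294 against 207 to 236 without Ermn, a myelin protein (1.195-fold lower), and at 97.4 to 107.5 against 86.3 to 100.9 without Aldoc, an astrocyte glycolytic enzyme (1.11-fold lower). The sum of 12 neuron markers was 516 to 525 in B6 mice and 493 to 506 in BTBR/R mice, 1.04-fold lower, with 2 genes lower and 1 higher. Nefl, a neurofilament chain, carried that difference (-0.75, limma adjusted p 2.69e-05), since the other 11 genes summed to 465 to 476 and 463 to 476, and the list median was 0.01. Brain endothelial markers ran from 37.8 to 42.5 against 33.0 to 35.8 (1.15-fold lower, 4 of 9 detected genes lower and 1 higher), which overlapped without Ly6c1 (21.98 to 23.4 against 19.6 to 22.05).

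Markers of other cells that dissected tissue can hold were summed and counted in the same way, beside the same shares over all genes. Leptomeningeal fibroblast markers overlapped between the strains (14.0 to 17.4 against 13.7 to 14.8, 1 of 10 genes higher and 0 lower), as did choroid plexus markers (3.39 to 43.1 against 7.07 to 27.3, none of 8 detected genes past the test in either direction). Muscle markers ran from 11.5 to 12.4 in B6 mice and from 7.18 to 8.06 in BTBR/R mice, 1.61-fold lower, with 1 of the 8 detected genes higher and 2 lower. Myh7 alone carried the lower sum, since the other 14 genes summed to 2.95 to 3.30 and 2.76 to 3.53. The called genes were Myh7 at -1.02 (limma adjusted p 1.87e-05) and Myh4, a fast myosin heavy chain, at 1.45 (limma adjusted p 7.65e-05) at its brightest probe, while another of its probes went the other way (limma adjusted p 0.00113), detected on all 4 B6 arrays and on no BTBR/R array, so that no fold is given for it. Red blood cell markers ran from 148 to 482 in B6 mice and from 106 to 130 in BTBR/R mice, 2.41-fold lower by the means, with 4 of 6 genes lower and 0 higher. Hba-a1 (-1.18), Hba-a2 (-1.18), Hbb-bt (-1.26) and Alas2 (-1.36) were called lower with limma adjusted p between 0.0319 and 0.0467. Hbb-b1 was at -1.003 (limma adjusted p 0.0706) and Hbb-b2 at 0.63 (limma adjusted p 0.228), and the globin genes are near copies whose probes may share signal. B6 mouse 1, highest for Gatm, had the highest oligodendrocyte and choroid plexus sums of its strain and a red blood cell sum of 178, in the lower part of the B6 range. In BTBR/R mice 1 to 4 the oligodendrocyte sum was 272, 269, 255 and 246, the same order as for Gatm. BTBR/R mouse 1, highest of its strain for Gatm, had the lowest choroid plexus sum (7.07) and the highest red blood cell sum (130) of its strain. The part of these cell types in the change of Gatm was not tested.

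The genes that supply synthesis with arginine, glycine and methyl groups mostly did not pass the test, which also held for detected genes at large. Of 28 listed genes, 22 were detected on all 8 arrays, and of these 2 were higher, 4 lower and 16 did not pass, with a median change of -0.05 and a range of -0.35 to 1.04. Over all genes with such a probe the median was 0.003 and 28.4% passed. Adk, adenosine kinase, which removes the adenosine left after methyl transfer, was read by 2 probes that differed. The probe brighter in B6 mice changed by 0.08 (limma adjusted p 0.265), and the other rose 2.06-fold, from 0.23 ± 0.09 to 1.27 ± 0.09 (SD, n = 4 each, limma adjusted p 2.76e-05). The latter stands for Adk in the list, and gives its upper end of 1.04, only through its level in BTBR/R mice. Mtrr, which keeps methionine synthase active, rose 1.39-fold (limma adjusted p 0.000157).

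Among transporters of arginine, glycine, guanidinoacetate and creatine, 16 of 22 genes were detected on all 8 arrays. Of these, 3 were higher, 2 lower and 11 did not pass (median 0.09, range -1.04 to 0.44), beside 28.4% that passed over all such genes. The 3 higher genes were Slc7a1 (0.17, limma adjusted p 0.0158), a carrier of cationic amino acids, Slc7a10 (0.29, limma adjusted p 0.0181) and Slc7a6 (0.14, limma adjusted p 0.0456), named after their values were seen. Slc7a8, an exchanger of neutral amino acids, fell 2.05-fold at its brightest probe, from 0.78 ± 0.11 to -0.26 ± 0.07 (SD, n = 4 each, limma adjusted p 2.76e-05), while a dim probe of the same gene, detected in 3 of 4 BTBR/R mice, changed by 0.04 (limma adjusted p 0.909). Slc7a3, a carrier of cationic amino acids such as arginine, fell 1.46-fold (limma adjusted p 0.00365). The other 6 transporter genes were not detected on all 8 arrays and are not in these counts. Slc7a2, Slc22a2 and Slc16a12 among them passed as lower (limma adjusted p 0.00682, 0.00815 and 0.0412). They were detected on 4 B6 arrays each and on 0, 0 and 3 BTBR/R arrays, and no fold is given for them. Slc25a2 and Slc25a15 did not pass. Of the 27 genes that exchange or transfer adenylates and phosphate beside the kinases, 25 were detected on all 8 arrays. Here 3 were higher, 3 lower and 19 did not pass (median -0.03, range -0.23 to 0.39), beside the same 28.4%. Nme3, a nucleoside diphosphate kinase, rose 1.31-fold (limma adjusted p 0.000667) and Ak4, an adenylate kinase of the mitochondrial matrix, rose 1.18-fold (limma adjusted p 0.00489). Mat1a, Slc6a5 and Slc25a31 also passed the rule for a call but were detected on no array.

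**Figure D4:**
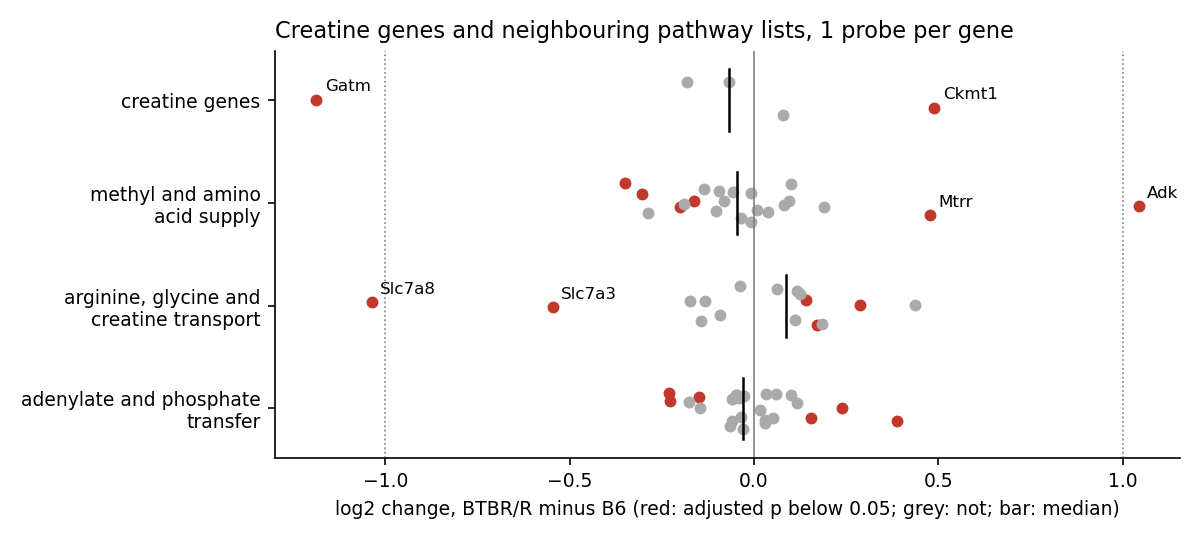
Log2 change, BTBR/R minus B6 (horizontal axis), of the brightest probe of each gene detected on all 8 arrays, for the 5 detected creatine genes and 3 lists of neighbouring pathways. Red points passed the adjusted p, grey points did not, black bars are list medians and dotted lines mark 2-fold. Gatm, Slc7a8 and Adk lie past 2-fold, Adk by the probe that is brighter only in BTBR/R mice, and the list medians lie between -0.05 and 0.09.

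The genes whose pattern over the 8 arrays was most like Gatm were found by the root mean square difference of the centred scaled signals, among 18856 other genes by their brightest probe detected on all 8 arrays. Signals were centred over both strains together, so that a strain change close to that of Gatm weighs heavily in this measure. The genes found were Evpl (0.0823, change -1.12), Gaa (0.0897, change -1.12) and the transcript AK079898 (0.102, change -1.20). Evpl encodes envoplakin, a linker of the cytoskeleton, and Gaa encodes acid alpha-glucosidase of the lysosome. Evpl and Gaa lie on chromosome 11 and AK079898 on chromosome 4, so that none lies beside Gatm.

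Gatm and Ckmt1 are on the same chromosome, with 1.23 Mb between their probes, and moved in opposite directions. Between them lay 25 detected probes of 15 genes, of which 7 were higher, 4 lower and 0 called, beside 13.0% higher and 13.9% lower among all detected probes. Their changes ran from -0.36 (Eif3j1, whose other probe was at 0.31) to 0.71 (Mfap1a). Within 1 Mb of Gatm lay 17 detected probes of 12 other genes, of which 6 were lower and 2 higher by the adjusted p (against the same shares), with a median of 0.01. Some of these probes share a gene and some lie in both windows. The probe called among these belonged to Sqrdl, a mitochondrial sulfide oxidase, at -1.12 (limma adjusted p 0.00243), and its other probe was at -0.29 (limma adjusted p 0.0174).

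**Figure D5:**
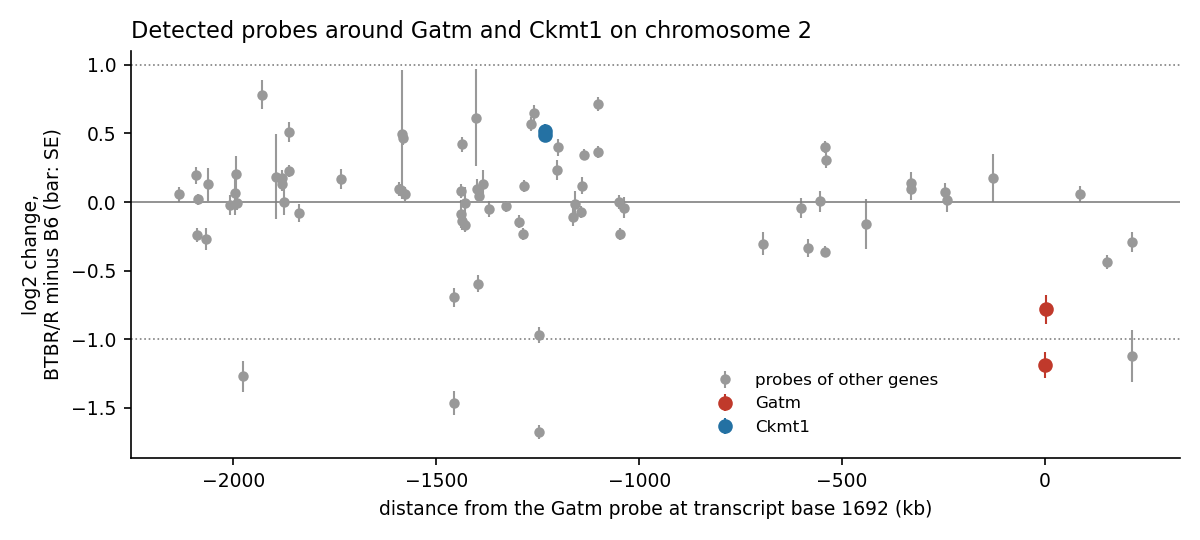
Log2 change with its SE (vertical axis, BTBR/R minus B6) of probes detected on all 8 arrays, against their distance in kb from the Gatm probe at transcript base 1692 (horizontal axis). Gatm is red, Ckmt1 blue and other genes grey; dotted lines mark 2-fold. Gatm lies below most of its neighbours, and Ckmt1 lies among probes of both directions.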

How the data were processed

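RNA of each mouse was labelled with Cy3 and hybridized to an Agilent mouse array. The authors deposited the spot intensities of Agilent Feature Extraction 10.7.3.1, among them the processed signal, from which background and spatial trends have been removed and whose lowest values are surrogates. GeneSpring log2 values, also deposited, differed from the log2 of this signal by a single offset on each array (within 0.01, at least 99.97% of probes). Control spots and 36 to 52 outlying spots per array were left out of 62976, spots of a probe were averaged, and 56605 probes remained. No probe was saturated.

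limma 3.58.1 (R 4.3.3; lmFit, eBayes) compared the strains on log2 processed signals, after the array's 75th percentile was subtracted, with Benjamini-Hochberg adjustment over all probes. Counts and figures were made in Python 3.11.15 with pandas 2.3.3, numpy 2.4.6, matplotlib 3.10.9 and scipy 1.17.1. Tested on simulated data for this comparison over 56605 probes, the fit recovered 195 of 200 changed probes (97.5%) and called 5 unchanged ones. The number of arrays limits the precision, and the labels number the mice within a strain without naming litters. Arrays of each strain occupied their own column of the slide, and column and strain therefore cannot be told apart.

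Members and lists were chosen with earlier results of these data known. Every member was named with all of its probes. Genes of the lists were named where their reference probe (the brightest one detected on all 8 arrays or, where there was none, the brightest) was called, and for each pathway list the 2 with the largest change were added. A listed gene that met this rule is not reported here. Ermn, Aldoc, Nefl, Ly6c1, Hbb-b1, Hbb-b2, Slc7a1, Slc7a2, Slc7a6, Slc7a10, Slc16a12, Slc22a2, Slc25a2, Slc25a15 and the neighbours of Gatm and Ckmt1 were named outside it, after their values were seen. Symbols are those of the array, and the accessions of 7 of 7 members matched the RefSeq gene table. Probe sequences and mm9 positions come from the scanner files. No genome of that build was used here, so that coding and untranslated parts were not told apart. Which transcript forms the probes of a gene target was not checked. Whether the strains differ in sequence under a probe was not checked either. Alternatives were normexp (offset 50), quantile normalization, other scaling constants, the authors' log2 values, the trend and robust options of limma, the methods' t-test, a filter on dim probes, a replicate block and leaving out each mouse. Scaling by 7 spike-in probes was added after seeing the data. Sums over marker lists use linear scaled signals of reference probes.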

Additional observations from a re-analysis of the deposited data

Results flagged for a closer look

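In 22 sets of 4 mice (11 probes by 2 strains), 3 held a mouse far from the others by Dixon's criterion, which marks about 1 in 20 sets by chance. At the Gatm probe from base 1692, B6 replicate 1 lay at 1.69 while the other B6 mice lay between 1.34 and 1.35. At the Gamt probe, BTBR/R replicate 2 lay at 2.13 while the others lay between 1.89 and 1.93. At the Ckmt1 probe from base 1474, BTBR/R replicate 4 lay at 5.30 while the others lay between 5.21 and 5.22.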

How the results depend on the processing

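The Gatm change lay between -1.22 and -1.08 over 18 alternatives, with adjusted p between 1.41e-05 and 0.00283, and the other Gatm probe and both Ckmt1 probes also kept their direction and their side of the threshold in all 18. Over all probes 12697 were called, against 563 with normexp, 2200 with quantile normalization and 1557 among the 35539 probes that all mice of a strain, or of both, had detected. Under the same settings the called member probes went from 3 to 1 each (Ckm and Ckmt2 lost), and called probes of the pathway lists from 12 to 1, 5 and 2. Those 12 were 7 of 54 supply probes, 4 of 35 transport probes and 1 of 43 adenylate and phosphate transfer probes, beside 22.4% of all probes. Of the called ones, 5, 3 and 1 were detected on no array. Spike-in scaling moved the median of all probes up by 0.11 and turned the Ckb probes from -0.07 to 0.0389 and from -0.09 to 0.0190, and normexp gave -0.21 for Ckm, which is not above background and had passed as higher. Same-numbered mice did not deviate together (correlations -0.07 to 0.16), and with the replicate block 3 member probes were called, 6 passed the adjusted p alone, 11 probes of the pathway lists were called and the Gatm change of -1.19 had an adjusted p of 0.00283. Leaving out each mouse gave Gatm changes of -1.22 to -1.10. The second Slc6a8 probe passed the adjusted p with spike-in scaling (0.28, 0.00709) and with the trend and robust options (0.0427), as did the brighter Ckb probe with the methods' t-test (0.0350) and with those options (0.0486). Of the changes recomputed for the 11 probes, 184 kept direction and side, 6 newly passed the threshold, 3 no longer passed it and 3 changed sign. Ckm and Ckmt2 have no value under the detection filter. Dim probes are limited by the lower detection on the BTBR/R arrays.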
